A study of Mus musculus with 18 samples.

Results

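Itga4, Itgal, Itgam, Itgax, Itgb1, Itgb2, Itgb7, Selplg and Icam1 are 9 adhesion genes of leukocytes, and they were followed here through mouse eosinophils exposed to bacteria, to IFN-γ, to both, or to IL-4. The 9 were chosen by name, as the rows of the count tables whose Ensembl identifiers carry these symbols, and each was present once among the 54232 genes listed in all 18 libraries. Bulk mRNA was counted in eosinophils washed from the peritoneal cavity of C57BL/6 mice of the NJ.1638 line, which carry an Il5 transgene, and all 6 groups share that strain, that transgene and that origin. The cells were purified by removing cells bound by anti-Thy1.2 and anti-B220 beads, and the age and sex of the animals and any pooling are not given in the sources used here.

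The first set of libraries holds unstimulated eosinophils (a, b and c), eosinophils given heat-inactivated E. coli, eosinophils given IFN-γ at 50 ng/ml, and eosinophils given IFN-γ at 50 ng/ml with E. coli, with 3 libraries in each group. The second set holds unstimulated eosinophils (d, e and f) and eosinophils given IL-4 at 100 ng/ml, again with 3 libraries each. Stimulation lasted 18 h, and no time in culture is stated for the unstimulated cells. Each stimulus was compared with the unstimulated cells of its own set, because the deposited files of the sets differ in layout. Nothing in the labels says whether libraries of a group came from separate animals, so the p-values measure the spread between libraries, which may in part be technical.

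Integrins are pairs of an alpha and a beta chain that bind ligands on other cells or in the matrix. On leukocytes, Itga4 encodes an alpha chain that pairs with the chain of Itgb1 to bind VCAM-1, or with the chain of Itgb7 to bind MAdCAM-1 of gut vessels, and eosinophils use these receptors to leave the blood. Itgal, Itgam and Itgax encode the alpha chains of LFA-1 (CD11a), Mac-1 (CD11b) and CD11c, which share the beta chain of Itgb2 (CD18), and ICAM-1, encoded by Icam1, is a ligand of Itgb2 integrins. Selplg encodes PSGL-1, the main ligand of P-selectin, on which leukocytes roll before integrins arrest them.

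Counts assigned to genes came to 1523808 to 2734041 per library in the first set and 3625036 to 6482289 in the second. Levels are given as counts per 1000000 (CPM) on library sizes scaled by the trimmed mean of M-values, separately in each set, so they were compared within a set only. A count of 3, taken as the floor of detection, corresponded to 1.10 to 1.97 CPM in the first set and to 0.463 to 0.828 CPM in the second. The sets also differed at the top of the scale: no gene of the first set had a count of 4096 or more, and the largest count of each of its 12 libraries was between 4089 and 4095, whereas the 6 libraries of the second set reached 87377 to 191131. The number 4096 is that of all possible 6-base sequences, and the counts of Itgam, Itgb2 and Selplg in the first set came close enough to this ceiling that a correction for it, chosen after seeing the data, is given below wherever it changed a call. Among unstimulated libraries of the second set, e stood apart: its counts differed from those of d and f with a chi-square of 23.7 and 22.0 per gene, against 7.86 between d and f, and values without e are given where they matter.

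Eosinophil markers were present in every library, with a summed level of 4483 to 6912 CPM for the 10 markers in the first set and 6917 to 8496 CPM in the second. Ccr3 (1196 to 1779 CPM in the first set) and Siglecf (322 to 1167 CPM) were high, while the granule genes Epx and Prg2 were at 0 to 1.90 and 12.5 to 32.3 CPM. Of the other cells a peritoneal wash can hold, the markers of T cells, mast cells, dendritic cells and mesothelial cells summed to at most 9.32, 72.9, 17.9 and 1.70 CPM in any library. The 8 neutrophil markers summed to 573 to 711 CPM in unstimulated libraries of the first set and 396 to 421 CPM with E. coli. They summed to 643 to 734 CPM with IFN-γ and 527 to 571 CPM with both agents. Within that list Retnlg was lower and Mmp8 higher with E. coli and with both agents. Their part in the changes of the members was not tested. The 10 macrophage and monocyte markers summed to 1914 to 3716 CPM in the first set and to 24903 to 26140 CPM in the second, where Ly6c2, which encodes a Ly6C antigen also carried by cells other than monocytes, alone gave 22384 to 24366 CPM. The macrophage complement genes C1qa, C1qb and C1qc were detected in every group, C1qb at 76.2 to 346 CPM in the first set and 504 to 888 CPM in the second. In bulk RNA, fewer cells of a type and less RNA per cell cannot be told apart.

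**Figure D1:**
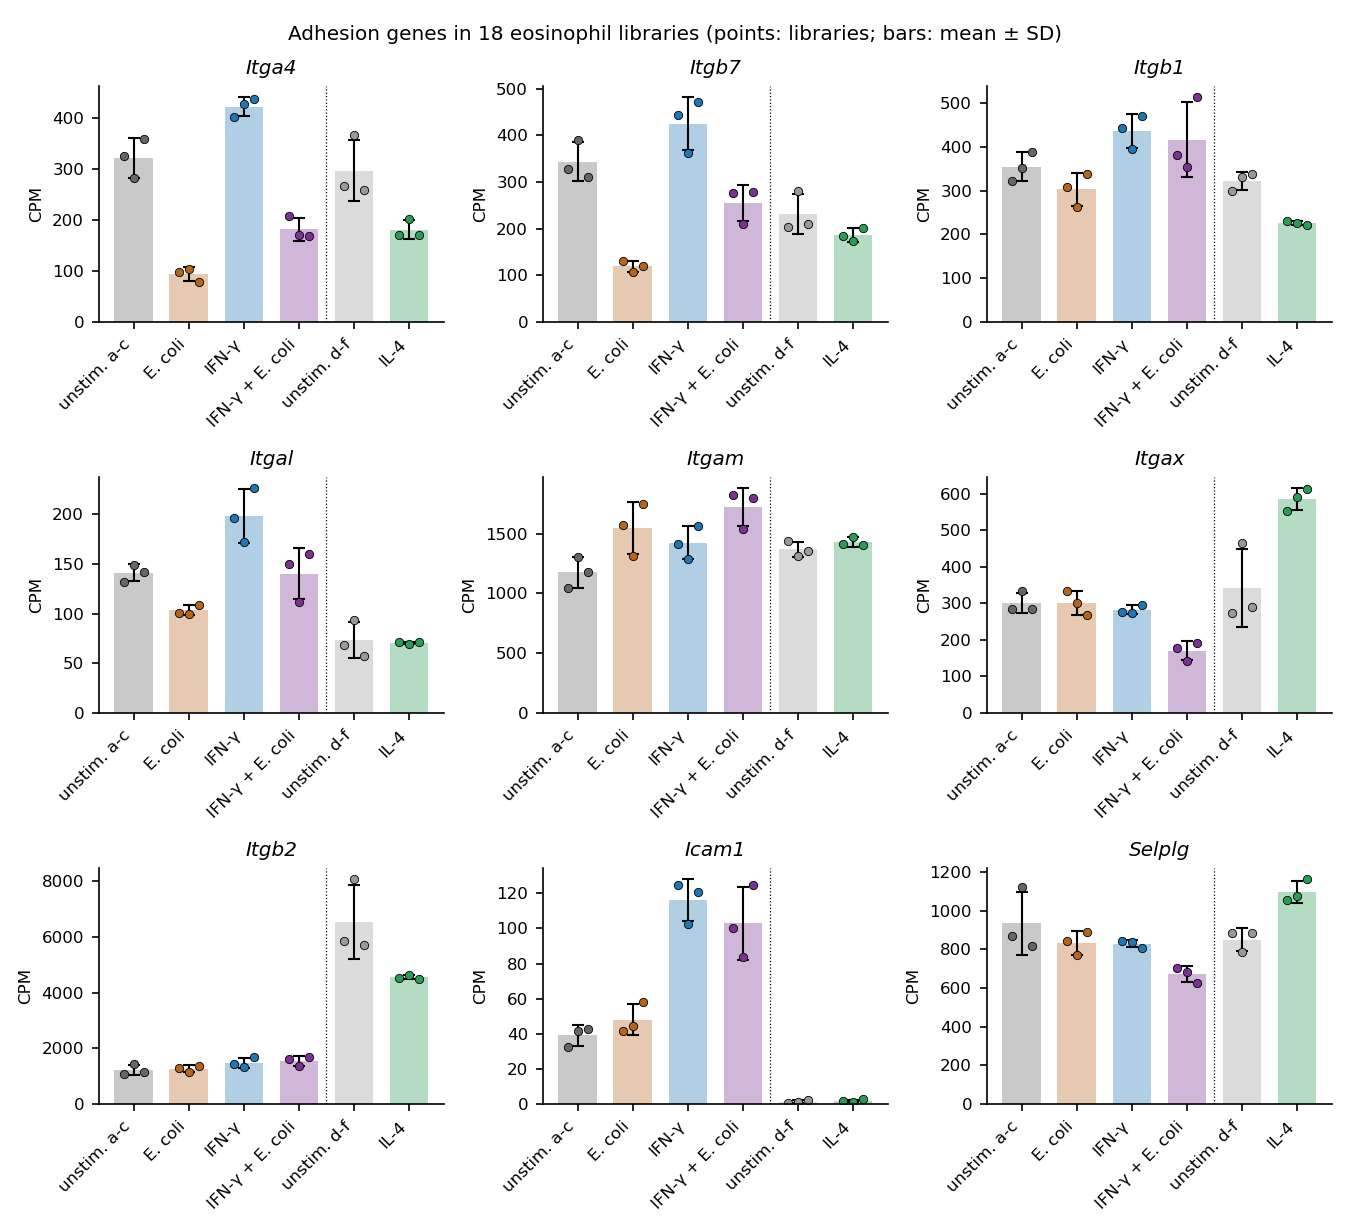
Level of each of the 9 adhesion genes in CPM (vertical axes, starting at 0) in the 6 groups, with points for the libraries, bars for the mean and whiskers for the SD of 3 libraries. The dotted line separates the 2 sets, whose levels were scaled separately. Within the first set, Itga4 and Itgb7 were lowest with E. coli, Icam1 was highest in the groups with IFN-γ and Itgax was lowest with both agents, and within the second set Itgax was higher with IL-4.

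Which adhesion genes did E. coli change? The alpha chain gene Itga4 and the beta chain gene Itgb7 fell, Itgal fell by less, and Itgam rose, while Itgax, Itgb1, Itgb2, Selplg and Icam1 did not pass the test. With p-values from edgeR (quasi-likelihood F test, Benjamini-Hochberg adjustment over all genes, threshold 0.05), 1 of the 9 genes was higher and 3 were lower, where 13.5% and 16.7% of the 9883 genes tested were called higher and lower. The median log2 fold change of the 9 was -0.17, against -0.02 over all genes tested. All 9 members passed the filter on low counts in the first set.

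Itga4 (ENSMUSG00000027009, chr2:79255426-79333123, plus strand of GRCm38) stood at 326, 282 and 359 CPM in unstimulated libraries a, b and c and at 97.5, 105 and 79.0 CPM with E. coli. The groups were far apart, with the highest E. coli library below the lowest unstimulated library. The fall was 3.43-fold (log2 fold change -1.78, SE 0.13, adjusted p = 9.65e-09), and it kept between -1.92 and -1.67 under all 20 alternative analyses. Itgb7 (ENSMUSG00000001281, chr15:102215995-102231944, minus strand), the beta partner of the Itga4 chain, was at 329, 390.4 and 311 CPM in unstimulated libraries and at 129.7, 107 and 120.5 CPM with E. coli. Again no library of either group lay within the range of the other, and the fall was 2.88-fold (log2 fold change -1.53, SE 0.14, adjusted p = 1.54e-07). Itgb1 (ENSMUSG00000025809, chr8:128685654-128733200, plus strand), the other beta partner of the Itga4 chain, was at 323, 352 and 388 CPM without and 308, 262 and 338 CPM with E. coli, and these ranges overlapped (log2 fold change -0.23, SE 0.14, adjusted p = 0.23). B cells also use Itga4 and Itgb7, and the 6 B cell markers moved in the same direction: their summed level was 117 to 217 CPM in unstimulated libraries and 40.8 to 76.5 CPM with E. coli, with none of the 6 at 0 throughout either group. The part of these markers in the falls of Itga4 and Itgb7 was not tested.

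Itgal (ENSMUSG00000030830, chr7:127296260-127335138, plus strand) was at 132, 149 and 142 CPM in unstimulated libraries and at 101, 99.97 and 109 CPM with E. coli, a fall of 1.36-fold (log2 fold change -0.45, SE 0.13, adjusted p = 0.0161). The ranges did not overlap, but the call was lost without unstimulated library b or without E. coli library 1 or 2 (adjusted p 0.0600 to 0.0683). For comparison, 45.3% of all genes tested had ranges that did not overlap between these groups, and 4 of the 9 members did.

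Itgam (ENSMUSG00000030786, chr7:128062640-128118491, plus strand) was at 1045, 1304 and 1180 CPM in unstimulated libraries and at 1574, 1311 and 1743 CPM with E. coli. The lowest E. coli library lay just above the highest unstimulated library, and the rise was 1.31-fold on the deposited counts (log2 fold change 0.39, SE 0.13, adjusted p = 0.0292). That call was lost without unstimulated library a or c or E. coli library 1 or 3 (adjusted p 0.0645 to 0.128). The deposited counts of Itgam were 3859, 3922 and 3531 in the E. coli libraries, or 86.2% to 95.8% of 4096, and 2057 to 2857 in the unstimulated ones. Replacing each count k by minus 4096 times the natural log of 1 - k/4096, the number of molecules expected to give k distinct sequences out of 4096, the rise became 2.33-fold (log2 fold change 1.22, SE 0.11, adjusted p = 1.70e-07), so that the ceiling moved this value more than any other alternative tried. The methods state that uniquely mapped reads were counted with HTSeq. Whether the deposited counts were reduced to distinct molecular identifiers is not given in the sources used here. Exons of Itgam also overlap those of Gm49368, a gene model on the same strand, to which 10 or fewer counts were assigned in each library. The methods name the union mode of HTSeq, in which a read overlapping both genes is counted to neither. Those counts therefore do not show how many reads of Itgam were lost to the overlap. Itga4 and Icam1 overlap exons of Cerkl and Gm47079 on the opposite strand, and whether strand was used in counting is not given in the sources used here.

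Itgb2 (ENSMUSG00000000290, chr10:77530252-77565708, plus strand), the common beta chain, was at 1066, 1429 and 1165 CPM in unstimulated libraries and at 1300.4, 1136 and 1379 CPM with E. coli, and the groups overlapped (0.06 on the log2 scale, SE 0.13, adjusted p = 0.779). Its counts stood at 68.2% to 83.0% of 4096 with E. coli, and after the correction the log2 fold change was 0.30 (SE 0.12, adjusted p = 0.062). Itgax (ENSMUSG00000030789, chr7:128129547-128150657, plus strand), whose gene starts 11055 bases beyond the end of Itgam, was at 286, 334 and 284 CPM without and 334, 302 and 267 CPM with E. coli (0.00 on the log2 scale, SE 0.12, adjusted p = 0.987). Selplg (ENSMUSG00000048163, chr5:113818536-113832644, minus strand) was at 866, 1121 and 818 CPM without and 839.9, 768 and 888 CPM with E. coli (-0.17 on the log2 scale, SE 0.12, adjusted p = 0.322). Icam1 (ENSMUSG00000037405, chr9:21015985-21028817, plus strand) was at 32.4, 41.8 and 42.9 CPM without and 41.6, 44.1 and 58.3 CPM with E. coli (0.30 on the log2 scale, SE 0.18, adjusted p = 0.227). For each of these 4 genes some E. coli libraries lay within the range of the unstimulated ones.

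**Figure D2:**
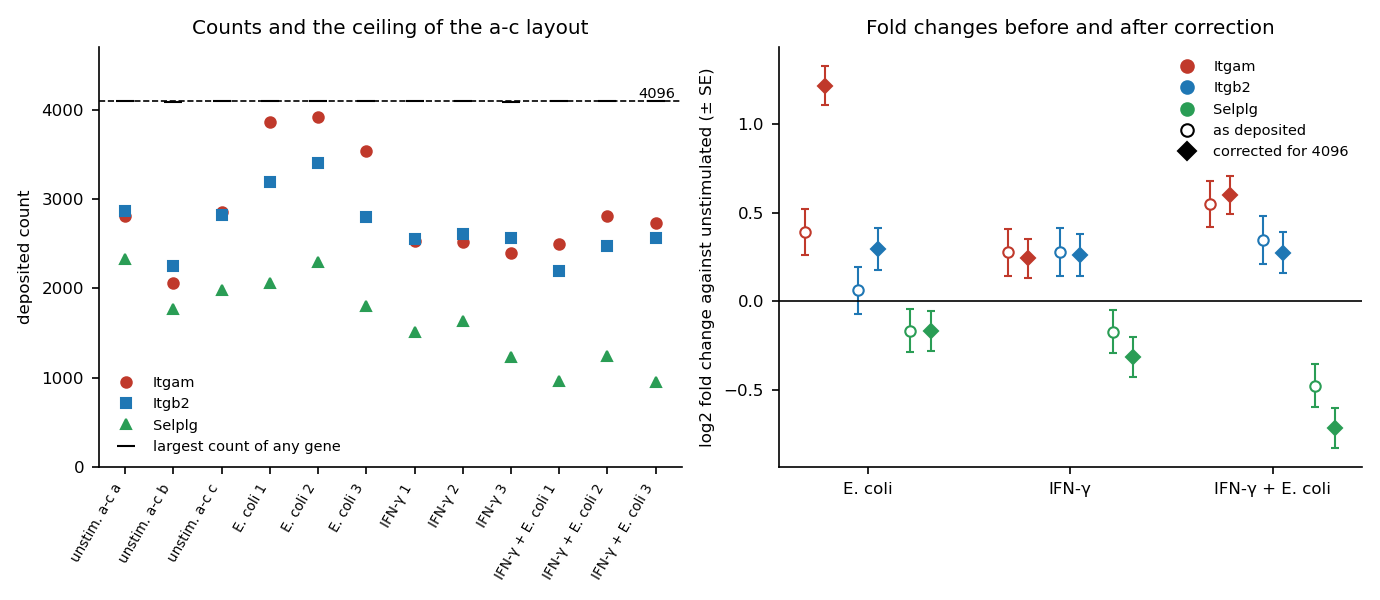
Left, deposited counts (vertical axis) of Itgam, Itgb2 and Selplg in the 12 libraries of the first set, with the largest count of any gene as a dash and the value 4096 as a broken line. Right, log2 fold change ± SE against unstimulated cells for the same genes from the counts as deposited (open circles) and after the correction for a ceiling of 4096 (diamonds). Itgam with E. coli sits at 86.2% to 95.8% of the line, and its log2 fold change moves from 0.39 to 1.22.

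IFN-γ, the cytokine of type 1 immunity, raised Icam1, Itgal and Itga4, and no member was called lower. The largest of these changes, in Icam1, was 2.99-fold, whereas Itgal and Itga4 rose by 1.41-fold and 1.31-fold. The 3 genes called higher stood against 15.6% of all genes tested, and the 0 called lower against 16%. In 4 of the 9 the ranges of the groups did not overlap, as in 45.7% of all genes tested. At an unadjusted p under 0.05, and by DESeq2, 0 members were lower as well. The median log2 fold change of the 9 genes was 0.30, against -0.03 over all genes tested.

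Icam1 rose from 32.4, 41.8 and 42.9 CPM to 125, 103 and 121 CPM (log2 fold change 1.58, SE 0.17, adjusted p = 9.89e-07). Its lowest IFN-γ library was over the highest unstimulated library by a wide margin, and the call held in every alternative run for this comparison. The promoter of Icam1 and that of Itgax, the member that IL-4 raised, are shown here on the coding strand from 5′ to 3′. Each is the 250 bases before the start in RefSeq for GRCm38.p6 (Icam1 chr9:21015690-21015939, Itgax chr7:128129300-128129549, both on the plus strand). These starts differ from those of the gene coordinates printed with each member, and the distances below are from the RefSeq starts. Capitals mark matches to 4 motifs searched on both strands, which were TTC and GAA with 4 bases between them, the spacing that STAT6 prefers, the interferon-stimulated response element as GAAA repeated after 2 bases, and a pair of κB motifs, GGAANTTCC and GGG followed after 3 bases by TTCC.
Icam1: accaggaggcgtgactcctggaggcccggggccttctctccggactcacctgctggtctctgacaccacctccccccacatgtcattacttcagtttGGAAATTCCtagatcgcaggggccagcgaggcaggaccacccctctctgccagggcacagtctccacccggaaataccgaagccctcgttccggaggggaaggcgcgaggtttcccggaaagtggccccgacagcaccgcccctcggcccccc
Itgax: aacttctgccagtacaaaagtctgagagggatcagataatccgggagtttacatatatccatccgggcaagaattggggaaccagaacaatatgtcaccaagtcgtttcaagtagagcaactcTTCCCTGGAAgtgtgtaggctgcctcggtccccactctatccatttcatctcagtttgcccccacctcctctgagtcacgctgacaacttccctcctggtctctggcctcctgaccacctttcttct
Icam1 held GGAANTTCC 153 bases before the start, as did 0.813% of 32851 mouse promoter windows of this length. Itgax held the STAT6 spacing 127 bases before the start, as did 5.85% of all windows. The windows of Itga4, Itgam, Itgb1 and Itgb7 held none of the 4 motifs, and 6 of the 9 members had a window in the table used. These letter matches were not tested for binding and describe the sequences alone.

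Itgal was at 132, 149 and 142 CPM in unstimulated libraries and at 196, 172 and 226 CPM with IFN-γ, without overlap (log2 fold change 0.49, SE 0.13, adjusted p = 0.00803). Itga4 was at 402, 428 and 439 CPM with IFN-γ against 282 to 359 CPM without (log2 fold change 0.39, SE 0.12, adjusted p = 0.0206). This last call was lost without unstimulated library a or b or IFN-γ library 3 (adjusted p 0.0529 to 0.0631). Itgb7 at 443, 362 and 471 CPM and Itgb1 at 442, 395 and 471 CPM had fitted fold changes of 1.24 and 1.23 and did not pass the test (adjusted p = 0.0836 and 0.109). The remaining genes, Itgam, Itgb2, Itgax and Selplg, had log2 fold changes of 0.28, 0.28, -0.09 and -0.17 with adjusted p of 0.118, 0.126, 0.612 and 0.303. Of the genes that did not pass, Itgb7 was called higher in 5 of 20 alternatives, and Itgb1, Itgam and Itgb2 in 1 each. With the correction for the ceiling Selplg alone changed its call in this comparison, to a log2 fold change of -0.31 (SE 0.11, adjusted p = 0.0411). The summed macrophage markers were 2475 to 3380 CPM in unstimulated libraries and 3215 to 3716 CPM with IFN-γ, of which Ly6c2 gave 1521 to 2553 and 2015 to 2567 CPM and C1qb 120 to 156 and 284 to 312 CPM. The B cell markers summed to 117 to 217 CPM without and 58.2 to 100.2 CPM with IFN-γ, with no overlap. The part of these markers in the changes of the members was not tested.

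With IFN-γ and E. coli together, 7 of the 9 genes were called: Icam1, Itgam and Itgb2 were higher and Itga4, Itgax, Selplg and Itgb7 were lower. Over all genes 23.9% were called higher and 25.2% lower in this comparison, and in 6 of the 9 genes the ranges did not overlap, as in 54.1% of all genes tested. The median log2 fold change of the 9 was -0.01, against -0.04 over all genes tested. The 3 comparisons of the first set share the unstimulated libraries a, b and c.

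Icam1 was at 100.1, 83.8 and 125 CPM, a rise of 2.64-fold (log2 fold change 1.4, SE 0.17, adjusted p = 2.12e-06). Its libraries all lay above those of unstimulated cells and of E. coli alone. Itgam was at 1824, 1537 and 1798 CPM, 1.46-fold over unstimulated cells (log2 fold change 0.55, SE 0.13, adjusted p = 0.00189), and after the correction for the ceiling 1.52-fold (log2 fold change 0.60, SE 0.11, adjusted p = 0.000186). Itgb2 was at 1604, 1357 and 1686 CPM, and its lowest library was below the highest unstimulated one (log2 fold change 0.35, SE 0.14, adjusted p = 0.041). That call was the least firm of the 7: it was lost without unstimulated library a or c, without E. coli library 1, IFN-γ library 1 or either library 1 or 3 of both agents (adjusted p 0.0512 to 0.174), and with the ceiling corrected (log2 fold change 0.27, adjusted p = 0.0594).

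Itga4 was at 207, 170.4 and 168 CPM, 1.78-fold lower than in unstimulated cells (log2 fold change -0.83, SE 0.13, adjusted p = 2.58e-05). Itgax, which neither agent alone moved past the threshold, was at 178, 143 and 191 CPM against 284 to 334 CPM, a fall of 1.76-fold (log2 fold change -0.82, SE 0.13, adjusted p = 2.72e-05). All 3 libraries with both agents lay below all 9 other libraries of the first set for this gene. Selplg was at 704, 681 and 625 CPM against 818 to 1121 CPM, a fall of 1.39-fold (log2 fold change -0.48, SE 0.12, adjusted p = 0.00304), which became 1.64-fold with the ceiling corrected (log2 fold change -0.72, SE 0.11, adjusted p = 4.67e-05). Itgb7 was at 277, 210.4 and 279 CPM, a fall of 1.35-fold (log2 fold change -0.43, SE 0.14, adjusted p = 0.0139) that was lost without unstimulated library b or library 2 of both agents (adjusted p = 0.0868 and 0.105). Itgal, at 149.7, 112 and 160 CPM, and Itgb1, at 381, 354 and 513 CPM, did not pass the test (log2 fold changes -0.01 and 0.23). The B cell markers summed to 121 to 134 CPM with both agents and to 117 to 217 CPM in unstimulated libraries. The 7 mast cell markers summed to 36.5 to 72.9 CPM with both agents against 7.43 to 10.1 CPM without, most of it from Cma1 and Tpsb2. The part of either list in these changes was not tested.

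**Figure D3:**
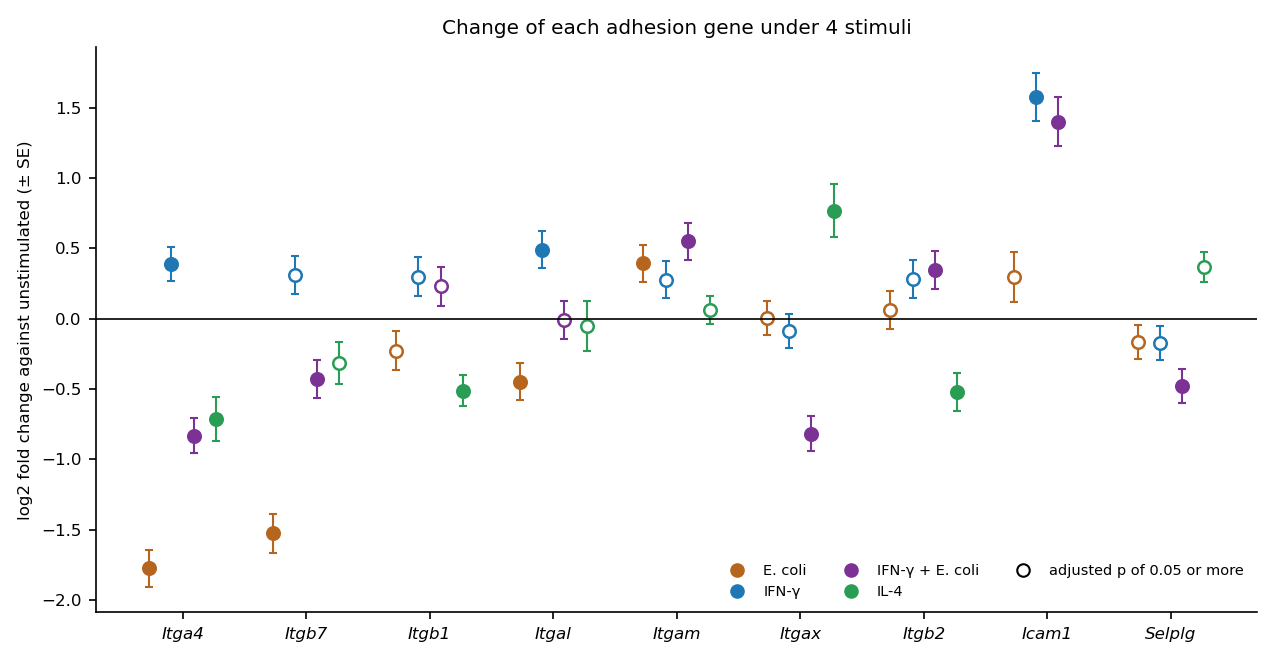
Log2 fold change ± SE of each gene against the unstimulated cells of its own set (vertical axis) for E. coli, IFN-γ, both and IL-4. Filled points passed an adjusted p under 0.05 and open points did not, and Icam1 has no point for IL-4 because its counts were too low to be tested. Itga4 is below 0 for E. coli, both agents and IL-4 and above 0 for IFN-γ.

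The first set crosses the agents, so each gene can be asked what IFN-γ did in cells with E. coli and the reverse. Adding IFN-γ to E. coli raised 5 genes and lowered 1, against 17.5% and 15.3% of all genes. Itgb7 rose from 107 to 129.7 CPM with E. coli to 210.4 to 279 CPM with both (2.14-fold, log2 fold change 1.10, SE 0.14, adjusted p = 6.50e-06). Icam1 rose 2.15-fold (log2 fold change 1.10, SE 0.17, adjusted p = 4.34e-05) and Itga4 1.93-fold (log2 fold change 0.95, SE 0.13, adjusted p = 1.89e-05). Itgb1 and Itgal rose by 0.46 and 0.44 on the log2 scale (adjusted p = 0.0159 and 0.0191), and Itgax fell by 0.82 (adjusted p = 4.56e-05). The Itgal call was lost without any of E. coli libraries 1 and 2 or libraries 1 and 3 of both agents (adjusted p 0.0634 to 0.0973), and the Itgb1 call without E. coli library 2 or library 3 of both agents (adjusted p = 0.096 and 0.12). Itgam did not pass on the deposited counts (log2 fold change 0.16, adjusted p = 0.387), but with the ceiling corrected it was lower with both agents than with E. coli alone (log2 fold change -0.62, SE 0.11, adjusted p = 0.000244), so the direction of this difference depends on how the counts near 4096 are read. Selplg (log2 fold change -0.31, adjusted p = 0.0561) was called lower in 6 of 20 alternatives, among them the ceiling correction (-0.55, SE 0.11, adjusted p = 0.00109).

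Adding E. coli to IFN-γ lowered 4 genes and raised none by edgeR, against 5.98% and 6.25% of all genes. At an unadjusted p under 0.05, and by DESeq2, it raised 0 as well, but Itgam (0.27, unadjusted p = 0.0507) was called higher with the ceiling corrected (0.36, adjusted p = 0.0378) and with a replicate block (0.27, adjusted p = 0.0192). Selplg (-0.31, adjusted p = 0.112) was called lower under the same correction (-0.40, adjusted p = 0.0266) and the same block (-0.31, adjusted p = 0.0194). Itga4 fell from 402 to 439 CPM with IFN-γ to 168 to 207 CPM with both (2.33-fold, log2 fold change -1.22, SE 0.13, adjusted p = 2.71e-06). Itgb7 fell 1.67-fold (log2 fold change -0.74, SE 0.14, adjusted p = 0.00121), Itgax 1.66-fold (log2 fold change -0.73, SE 0.13, adjusted p = 0.000724) and Itgal 1.41-fold (log2 fold change -0.50, SE 0.13, adjusted p = 0.0196). The Itgal call was lost without IFN-γ library 1 or 3 or library 2 of both agents (adjusted p 0.0553 to 0.126). Icam1 did not pass the test between these groups (116 ± 11.9 CPM with IFN-γ and 103 ± 20.5 CPM with both, SD, n = 3 libraries each, adjusted p = 0.548). Set directly against each other, IFN-γ exceeded E. coli in 5 genes and in 0, also at an unadjusted p under 0.05 and by DESeq2, was it lower, against 14.1% and 11.5% of all genes: Itga4 by 4.48-fold, Itgb7 by 3.57-fold, Icam1 by 2.43-fold, Itgal by 1.92-fold and Itgb1 by 1.44-fold (adjusted p from 3.80e-10 to 0.00782). The Itgb1 call was lost without E. coli library 2 (adjusted p = 0.0572). With the ceiling corrected, Itgam was lower with IFN-γ than with E. coli (log2 fold change -0.98, SE 0.11, adjusted p = 1.74e-06), against -0.12 (adjusted p = 0.563) on the deposited counts.

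The interaction term, which asks whether the effect of both agents differs from the sum of their separate log2 effects, was positive for 1 and negative for 1 of the 9 genes, against 2.58% and 2.04% of all genes. For Itgax it was -0.73 (SE 0.17, adjusted p = 0.0194), since the level fell with both agents together while either alone left it between 267 and 334 CPM. For Itgb7 it was 0.79 (SE 0.19, adjusted p = 0.0229), the fall by E. coli being smaller in cells that also received IFN-γ. The Itgax term lost its call without unstimulated library a, E. coli library 1 or library 2 of both agents (adjusted p 0.0578 to 0.0647), and the Itgb7 term without unstimulated library b, E. coli library 2, IFN-γ library 2 or library 1 of both agents (adjusted p 0.0648 to 0.0887). For Itga4, which shares a receptor with Itgb7, the term was 0.56 (SE 0.18, adjusted p = 0.0879) and did not pass. With the ceiling corrected the term of Itgam passed as well, at -0.86 (SE 0.15, adjusted p = 0.00293).

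**Figure D4:**
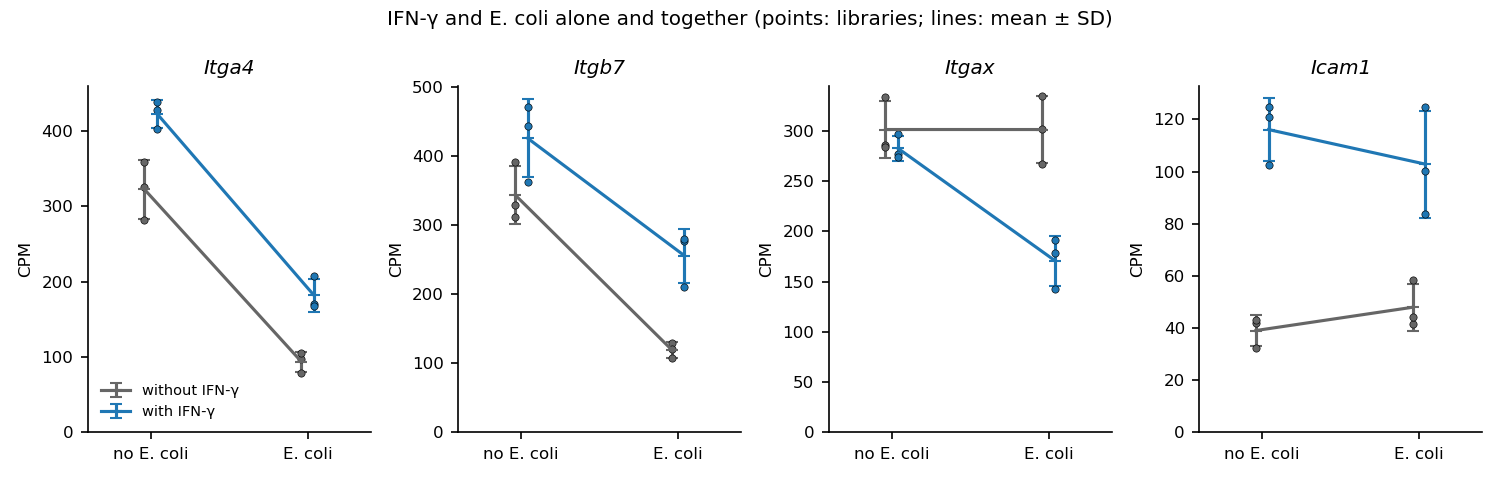
CPM (vertical axes, starting at 0) of Itga4, Itgb7, Itgax and Icam1 without and with E. coli, in cells without IFN-γ (grey) and with IFN-γ (blue). Points are libraries and lines join means ± SD of 3 libraries. The lines of Itgax part only where both agents were present, at 143 to 191 CPM against 267 to 334 CPM, and those of Icam1 stay apart at either E. coli state.

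Ordered by level within the first set, Itga4 ran from IFN-γ (423 ± 18.7 CPM, SD, n = 3) over unstimulated cells (323 ± 38.8) and both agents (182 ± 22.0) down to E. coli (93.8 ± 13.4), and each neighbour in that order differed by the edgeR test. Itgb7 kept the same order, at 425 ± 56.7, 343 ± 41.5, 255 ± 39.0 and 119 ± 11.3 CPM, with only the first pair of neighbours not told apart. Itgal followed it as well (198 ± 27.3, 141 ± 8.57, 140.4 ± 25.2 and 103 ± 5.07 CPM), with unstimulated cells and both agents not told apart. For Itgb1 (303 to 436 CPM), Itgb2 (1220 to 1549 CPM), Itgam (1176 to 1720 CPM as deposited) and Selplg (669.9 to 935 CPM) no neighbours in the order of the means differed by the test. In Icam1 the step lay between E. coli (48.0 ± 8.98 CPM) and both agents (103 ± 20.5 CPM), and in Itgax between both agents (171 ± 25.0 CPM) and IFN-γ (283 ± 12.5 CPM).

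Across the 12 libraries of the first set, the pair of members most alike in log2 CPM was Itga4 and Itgb7 (Pearson r 0.94), followed by Itgal and Itgb7 (0.90). These values are a description over libraries that share 4 groups and their depths. Among all other tested genes the closest to Itga4 were Tmem71 and N4bp2l1 (r 0.98 and 0.98), and to Itgb7 Cyp4v3 and Mdh1 (0.97 and 0.97). The closest to Icam1 were Gm2a and Saraf (0.98 and 0.98), to Itgax Tmem154 and Gm14548 (0.98 and 0.96) and to Itgal Crlf3 and Unc93b1 (0.97 and 0.95). Itgam was closest to Serpinb2 and Mbd2 (0.96 and 0.96), Itgb2 to Cdc42 and Tpm3 (0.98 and 0.97), Itgb1 to Ncoa3 and Fcgr4 (0.94 and 0.92) and Selplg to Coro1a and Hectd3 (0.96 and 0.94).

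IL-4, the type 2 cytokine, raised Itgax and lowered Itga4, Itgb1 and Itgb2 in the second set. Of the 8 members tested, 1 was higher and 3 were lower, against 5.97% and 4.35% of the 10556 genes tested there. The median log2 fold change of the 8 was -0.19, against 0.00 over all genes tested. In 6 of the 8 the ranges did not overlap between the groups, as in 31.3% of all genes tested. Icam1 was left untested by the filter on low counts: its 2, 5 and 11 counts in unstimulated libraries and 8, 7 and 10 counts with IL-4 are 0.555 to 2.08 and 1.16 to 2.59 CPM, so that library d was below the floor of 3 counts and the others were not far above it.

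Itgax was at 272, 467 and 291 CPM in unstimulated libraries d, e and f and at 554, 591 and 613 CPM with IL-4. Library e was well above d and f, yet every IL-4 library lay above it, and the rise was 1.70-fold (log2 fold change 0.77, SE 0.19, adjusted p = 0.0276). Without library e the log2 fold change was 1.05 (adjusted p = 7.02e-06), and leaving out any of the other 5 libraries took the adjusted p to 0.0593 to 0.107 with log2 fold changes of 0.62 to 0.82. Itga4 was at 267, 367 and 259.7 CPM without and 170.3, 202 and 171 CPM with IL-4, a fall of 1.64-fold (log2 fold change -0.72, SE 0.16, adjusted p = 0.0163). Again e held the highest value, and without it the log2 fold change was -0.54 (adjusted p = 0.00353), while leaving out IL-4 library 1 or 3 lost the call (adjusted p = 0.093 and 0.0755).

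Itgb1 was at 298, 330.2 and 338 CPM without and 231, 225 and 222 CPM with IL-4, with a narrow spread in both groups, and fell 1.43-fold (log2 fold change -0.51, SE 0.11, adjusted p = 0.0157). The call was lost without library f or any IL-4 library (adjusted p 0.0529 to 0.0814). Itgb2 was at 5856, 8079 and 5721 CPM without and 4526, 4647 and 4508 CPM with IL-4, and fell 1.44-fold (log2 fold change -0.52, SE 0.14, adjusted p = 0.037). Without library e, whose value was the highest, its log2 fold change was -0.35 (adjusted p = 0.00313), and without any IL-4 library it did not pass (adjusted p 0.119 to 0.146). Selplg was at 885, 783 and 882 CPM without and 1057, 1073 and 1162 CPM with IL-4, the groups not overlapping, with an adjusted p of 0.0565 (log2 fold change 0.37, SE 0.11), and it passed without library e (log2 fold change 0.31, adjusted p = 0.0305). Itgb7 was at 204, 281 and 209 CPM without and 184, 173 and 202 CPM with IL-4 (log2 fold change -0.32, SE 0.15, adjusted p = 0.213). Itgam, at 1313 to 1436 CPM without and 1404 to 1473 CPM with IL-4, and Itgal, at 57.4 to 93.1 and 69.3 to 71.3 CPM, had overlapping ranges (log2 fold changes 0.06 and -0.05, adjusted p = 0.745 and 0.882). In the same libraries the 8 neutrophil markers summed to 1682 to 1993 CPM without and 757 to 826 CPM with IL-4, nearly all of it from Retnlg (1658 to 1978 and 707 to 792 CPM), while Cxcr2 of the same list was at 2.48 to 4.91 CPM without and 25.4 to 42.8 CPM with IL-4. The 10 macrophage and monocyte markers summed to 24903 to 26116 and 25031 to 26140 CPM, mostly Ly6c2. Within that list Csf1r (367 to 485 against 237 to 291 CPM), C1qb (638 to 888 against 504 to 592 CPM) and Vsig4 (34.1 to 36.8 against 20.1 to 21.5 CPM) were lower in every IL-4 library, and Timd4 was higher (53.2 to 75.7 against 80.1 to 103 CPM). The B cell markers summed to 23.7 to 43.4 CPM without and 58.7 to 71.8 CPM with IL-4. The part of these markers in the changes of the members was not tested.

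The responses to IL-4 and to the other stimuli were compared in a model over all 18 libraries, as the difference of each log2 fold change from its own unstimulated cells. Because 1 set has the ceiling and the other does not, set and stimulus cannot be told apart in the levels, and these differences rest on each set's own controls. Itgax differed from its response to E. coli, IFN-γ and both agents by 0.75, 0.83 and 1.53 on the log2 scale (adjusted p = 0.0149, 0.00832 and 1.51e-05). Itga4 fell less with IL-4 than with E. coli (difference 1.05, SE 0.21, adjusted p = 0.000549), moved opposite to IFN-γ (difference -1.14, SE 0.20, adjusted p = 0.000203) and did not differ by the test from both agents (difference 0.05, SE 0.20, adjusted p = 0.865). Itgb7 differed from its E. coli response by 1.19 and from its IFN-γ response by -0.66 (adjusted p = 0.000145 and 0.0177). Of the 9 genes, 4 were higher and 1 lower under IL-4 than under E. coli (14.4% and 13.7% of 10671 genes), 2 and 5 than under IFN-γ (13% and 14.7%), and 2 and 3 than under both agents (18.5% and 20.7%). The 9 include Icam1, which passed the filter of this model though unstimulated libraries d, e and f held 2 to 11 counts of it. Its differences had an SE of 0.48 to 0.53 and were not called, so its response to IL-4 was hardly measured.

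The other genes of these adhesion pathways were described from 5 lists of 86 genes, of which 57 were tested in the first set and 58 in the second. E. coli raised 7 and lowered 9 of the 57, IFN-γ 12 and 13, both agents 16 and 20, and IL-4 raised 5 and lowered 7 of the 58. In either direction that is 28.1%, 43.9%, 63.2% and 20.7% of the lists, where 30.2%, 31.6%, 49% and 10.3% of all genes tested were called. The median log2 fold changes of the lists were 0.03, 0.06, 0.02 and -0.11.

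Among 19 other integrin chains, 9 were tested in the first set. Itga2 and Itgb3, chains of a collagen receptor and of receptors for fibrinogen and vitronectin, fell in each comparison of that set. Itgb3 went from 94.2 to 112 CPM in unstimulated cells to 20.4 to 30.6 CPM with E. coli, 33.3 to 43.2 CPM with IFN-γ and 9.86 to 13.2 CPM with both (log2 fold changes -2.04, -1.52 and -3.16). Itga2 went from 40.6 to 73.0 CPM to 8.57 to 11.8, 10.1 to 10.5 and 0.659 to 2.74 CPM (log2 fold changes -2.40, -2.43 and -4.98), the last near the floor of detection. Itgb8, a beta chain known for activating latent TGF-β, rose from 4.10 to 6.61 CPM to 19.99 to 44.4 CPM with E. coli and 21.8 to 33.4 CPM with both (log2 fold changes 2.57 and 2.38), and with IL-4 from 7.12 to 10.4 CPM to 16.4 to 19.4 CPM (log2 fold change 1.06, SE 0.22, adjusted p = 0.014). Itgb5 fell with the 3 stimuli of the first set (log2 fold changes -0.72, -1.66 and -1.5) and rose with IL-4 (1.51, SE 0.23, adjusted p = 0.00276). Itga6, a laminin receptor chain, fell with E. coli and with both agents (-1.14 and -0.96), and Itga9 rose with both (1.87, SE 0.43, adjusted p = 0.00129).

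Of 32 proteins that activate integrins or tie them to the cytoskeleton, 27 were tested in the first set. IFN-γ called 7 higher and 6 lower and both agents 8 and 9, and E. coli called 2 and 1, where 31.6%, 49% and 30.2% of all genes were called in either direction. Fyb, an adaptor of integrin activation, and Fgr, a kinase of the Src family, rose in each of the 3 comparisons, Fyb by 0.87, 0.54 and 1.19 and Fgr by 0.89, 0.74 and 0.83 on the log2 scale. Ptk2b, a kinase of focal contacts, rose with IFN-γ and both agents (0.74 and 0.53). Rasgrp2, the exchange factor that switches on Rap1, fell with IFN-γ from 11.6 to 19.0 CPM to 1.31 to 5.13 CPM (-2.41, SE 0.42, adjusted p = 0.000222) and with both agents (-1.85), and Rassf5, an effector of Rap1, fell with IFN-γ (-0.59) and with both agents, in the latter from 389 to 427 CPM to 151 to 200.5 CPM (-1.26, SE 0.13, adjusted p = 1.29e-07). Ilk, the integrin-linked kinase, fell in the 3 comparisons (-0.51, -0.54 and -0.90). IL-4 called 1 of 26 higher, the parvin gene Parvg (0.91), which fell with IFN-γ and both agents (-0.65 and -0.91), and 3 lower, among them Parvb (-0.81) and the filamin gene Flna (-0.87), where 5.97% of all genes were called higher and 4.35% lower.

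Of 14 integrin ligands, 6 were tested in the first set and 8 in the second. Thbs1, a secreted matrix protein, rose from 215 to 299 CPM to 808 to 1053 CPM with E. coli, 997 to 1338 CPM with IFN-γ and 1845 to 2363 CPM with both (log2 fold changes 1.84, 2.17 and 3.09), and fell with IL-4 (-0.65, SE 0.16, adjusted p = 0.0278). Its deposited counts reached 3583 with both agents, so that its rise there too was measured near the ceiling. Vcam1, the ligand of the Itga4 and Itgb1 pair, was low but rose with IFN-γ (0.90, adjusted p = 0.0202) and with both agents (1.54, adjusted p = 0.000115), from 6.97 to 14.9 CPM to 27.8 to 44.2 CPM in the latter. Icam2 fell with E. coli and with both agents (-0.73 and -0.70), F11r fell with IFN-γ (-0.76), and Fn1, fibronectin, fell with E. coli (-1.59) and with IL-4 (-0.63).

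Of 21 selectins, selectin ligands and enzymes that build their glycans, 15 were tested in each set. Spn (CD43) fell with IFN-γ and both agents (-1.03 and -1.41) and rose with IL-4 (0.63, SE 0.16, adjusted p = 0.0327). St3gal4, a sialyltransferase that caps selectin ligands, fell from 140.0 to 146 CPM to 50.4 to 66.6 CPM with IFN-γ and 36.3 to 42.4 CPM with both (-1.29 and -1.87), while with E. coli alone it rose (0.40, SE 0.11, adjusted p = 0.0102). Selp, P-selectin, fell with the same stimuli (-1.23 and -1.75). Tpst1, a tyrosine sulfotransferase of the kind that completes PSGL-1, fell with E. coli (-1.34, SE 0.17, adjusted p = 5.98e-06) and rose with IFN-γ, both agents and IL-4 (0.92, 0.75 and 0.98), and Gcnt1, which branches the glycans of PSGL-1, rose with E. coli and both agents (0.56 and 0.33). With IL-4 the fucosyltransferase gene Fut4 fell (-1.18, SE 0.26, adjusted p = 0.0173), as it did with both agents (-0.73).

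**Figure D5:**
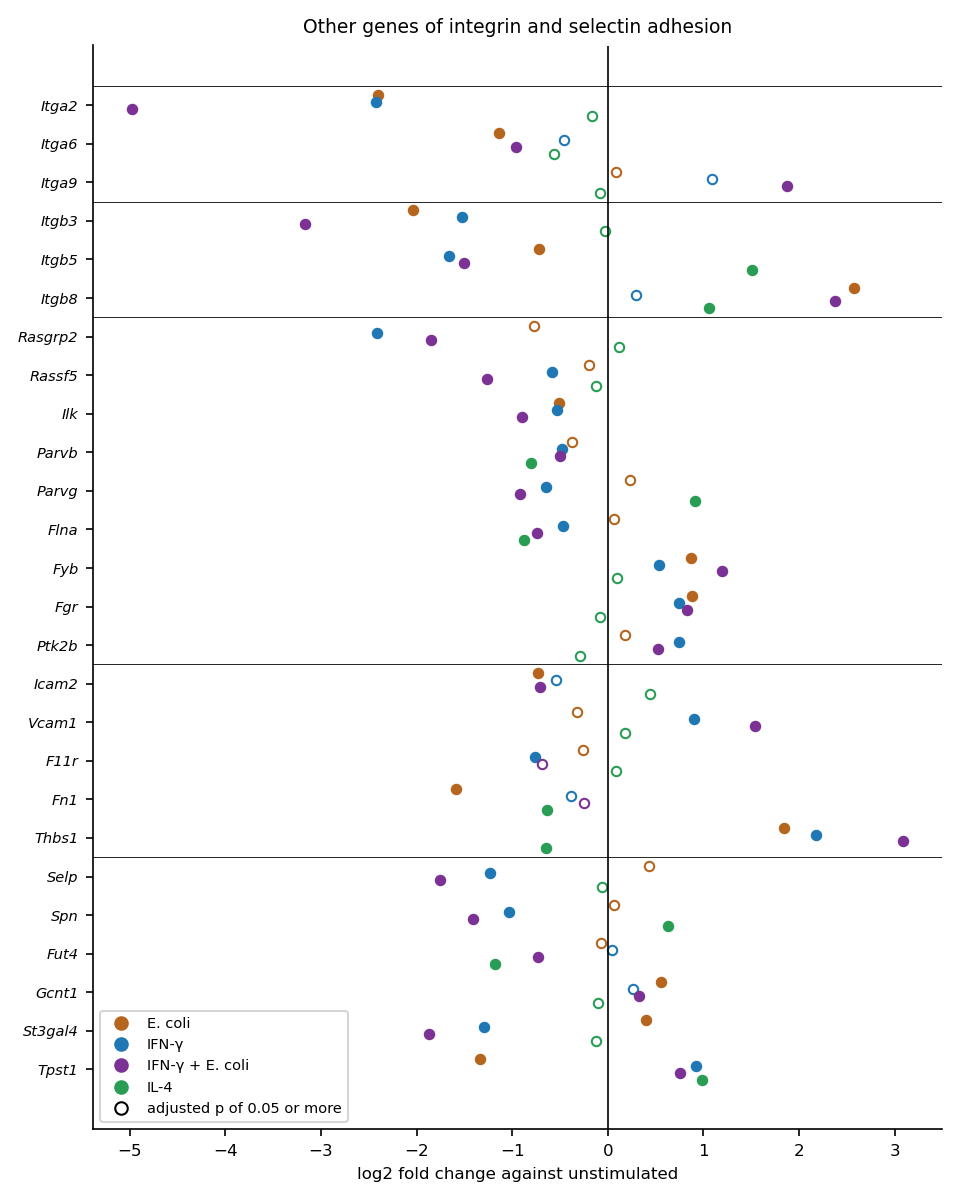
Log2 fold change against unstimulated cells (horizontal axis) of the named genes of the 5 adhesion lists, which are separated by lines. Filled points passed an adjusted p under 0.05. Itga2 and Itgb3 lie left of 0 for the 3 stimuli of the first set, and Thbs1 lies right of 0 for these and left of it for IL-4.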

How the data were processed

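Bulk mRNA of mouse eosinophils was counted in 18 libraries in 6 groups of 3. The authors deposited raw counts per gene, made per the methods with Tophat2 2.1.0 on GRCm38 and HTSeq 0.6.1 after CEL-Seq2, a protocol that tags the 3′ end of transcripts. The submitters' processing notes also name fastp 0.20.1 and STAR 2.7.2a, and which libraries these were used for is not given in the sources used here. Rows that name no gene held 21.1% to 39.4% of the counts in the first set and were left out. Gene symbols and coordinates came from the GENCODE M21 annotation of GRCm38, in which 98.4% and 99.9% of the identifiers of the 2 sets were found.

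Genes were kept by edgeR's filterByExpr and tested with edgeR 4.0.16 (R 4.3.3) by quasi-likelihood fits on TMM-scaled counts, 1 fit for the 12 libraries of the first set, 1 for the 6 of the second and 1 for all 18 for comparisons of responses. P-values were adjusted by Benjamini-Hochberg over all genes tested, with a threshold of 0.05 and no fold threshold, and an SE is the log2 fold change divided by the square root of F. The fits were tested on simulated counts. The alternatives were DESeq2 1.42.0, its size factors, other filters, a 2-fold threshold, other sets of libraries, each library left out, a replicate block and a correction for a ceiling of 4096, the last added after seeing the data. The members, lists and tests were chosen with earlier results of these data known. Named from each list are the up to 3 called genes with the largest change per comparison among those with a mean of at least 10 CPM in a group compared, and for each member the 2 genes with the highest r. Levels of the members were compared between groups and never between genes. 1 gene that this rule names and 1 motif are not reported here.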

Additional observations from a re-analysis of the deposited data

Results flagged for a closer look

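The effect of both agents differed from the sum of the separate log2 effects, by an interaction term in edgeR, for Itgax (-0.73) and Itgb7 (0.79). These are 2 of 9 genes, where 2.58% of all genes tested passed above 0 and 2.04% below.

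The response to IL-4 differed from the response to E. coli, by a test of the difference in a model of 18 libraries, for Itga4 (1.05), Itgb7 (1.19), Itgax (0.75), Selplg (0.52) and Itgb2 (-0.60), all on the log2 scale. Itgam (-0.35, adjusted p = 0.139 by edgeR) joined them with the ceiling corrected (-1.18, adjusted p = 3.18e-06). Itgal (0.37, adjusted p = 0.215 by edgeR) joined them without unstimulated library e (0.59, adjusted p = 0.0235). The response to IL-4 differed from the response to IFN-γ for Itgax (0.83), Selplg (0.51), Itga4 (-1.14), Itgb1 (-0.84), Itgb2 (-0.84), Itgb7 (-0.66) and Itgal (-0.58). The Itgal difference was at the threshold (adjusted p = 0.0497 by edgeR): it was lost in 13 of the 18 fits that left out 1 library, with values from -0.74 to -0.36 (the latter without unstimulated library e), and with the ceiling corrected (adjusted p = 0.0551). In the same kind of fits the Itgb2 difference from E. coli was lost in 7, the Selplg differences from E. coli and IFN-γ in 3 and 4, and the Itgb7 difference from IFN-γ in 1. Without library e the Itgb2 difference from E. coli was -0.43 (adjusted p = 0.0836) and the Selplg difference from IFN-γ 0.44 (adjusted p = 0.0508). The response to IL-4 differed from the response to both agents for Itgax (1.53), Selplg (0.79), Itgb2 (-0.93), Itgb1 (-0.80) and Itgam (-0.55). Each difference sets unstimulated libraries a, b and c against d, e and f as well as the stimuli, so the stimulus and the set of libraries cannot be told apart in it.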

How the results depend on the processing

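Counts of members called are given here as higher or lower than in the comparison group. Shares of all genes under these alternatives are not given, so the counts show only how the calls of the members moved. For IL-4 against unstimulated cells, DESeq2, requiring 10 counts throughout and a model of all 18 libraries each called 2 higher, the added gene being Selplg. For both agents against E. coli, testing every detected gene, the stricter filter of 10 counts and a fit of only the 6 libraries compared each called 2 lower, again with Selplg, and with every detected gene the IL-4 response exceeded the IFN-γ response in 1. With a change of 2-fold or more also required, 0 were higher and 2 lower with E. coli, and 1 was higher with IFN-γ. Both agents gave 1 higher and 0 lower, and IL-4 gave 0 and 0. Under the same rule both agents against E. coli gave 2 and 0, both agents against IFN-γ 1 lower, IFN-γ against E. coli 3 higher, and the interaction 0 and 0. The IL-4 response then gave 2 and 0 against E. coli, 0 and 1 against IFN-γ, and 1 and 0 against both agents.

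With all 6 unstimulated libraries as 1 group, 0 were higher with E. coli and 1 was higher with both agents. With IL-4, 2 were higher and 1 lower. Against that group Itgb2 turned its direction, to -1.95 with E. coli, -1.71 with IFN-γ, -1.62 with both agents and 0.30 with IL-4. That group joins the sets, in which Itgb2 stood at 1220 and 6552 CPM. With the ceiling of 4096 corrected, a choice made after seeing the data, 1 was lower with IFN-γ, 3 were lower with both agents than with E. coli (Itgam turning to -0.62), 1 was higher and 5 were lower with both than with IFN-γ, 1 was lower with IFN-γ than with E. coli, 2 interaction terms were negative, and 2 were lower in the IL-4 than in the E. coli response.

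Leaving out 1 library at a time, E. coli called 0 to 1 higher and 2 to 3 lower, both agents 2 to 3 higher and 3 to 4 lower, IFN-γ 2 to 5 higher, and IL-4 0 to 2 higher and 0 to 3 lower. Both agents against E. coli ranged over 3 to 5 higher and 1 to 2 lower, both agents against IFN-γ over 3 to 5 lower, IFN-γ against E. coli over 4 to 5 higher, and the interaction over 0 to 1 in each direction. The IL-4 response ranged over 0 to 1 lower than that to E. coli, and over 1 to 2 higher and 3 to 5 lower than that to IFN-γ. The genes higher than in the E. coli response also changed: Selplg lost its call in 3 of 18 fits, and Itgal gained a call without library e. The falls of Itga4 and Itgb7 with E. coli and the rises of Icam1 with IFN-γ and both agents kept their calls without any 1 library.

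Replicate numbers were shared by the 3 stimulated groups of the first set only, since unstimulated libraries carry letters. Deviations of same-numbered libraries correlated at -0.0450 to 0.331 over the pairs. For E. coli with IFN-γ, E. coli with both agents and IFN-γ with both agents, the mean r was 0.05, 0.11 and 0.17 at the same number. At different numbers it was -0.03, -0.05 and -0.08. What the numbers stand for is not given in the sources used here, and the main tests read them as names, so a pairing may have been left out. A replicate block called 3447 in place of 3240 genes for both agents against E. coli, 1430 in place of 1209 against IFN-γ and 2750 in place of 2525 for IFN-γ against E. coli. It added 5 calls among the members: Itgb2 higher (0.27) and Selplg lower (-0.32, 2 lower in all) for the first, Itgam higher (0.27, 1 higher in all) and Selplg lower (-0.31) for the second, and Itgb2 higher (0.21) for the last. Not every library correlated best with its own number. At a biological coefficient of variation of 0.118 in the first set and 0.182 in the second, with 3 libraries a group, the calls for IL-4 passed or failed with the choice of libraries: Itgax lost its call in 5 of 6 fits without 1 library, Itgb1 in 4, Itgb2 in 3 and Itga4 in 2. In the second set the 2 to 11 counts of Icam1 limit what can be said of it.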
